A study of Mus musculus with 12 samples.

Results

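This report concerns the genes whose response to loss of Foxe1 differed between organoid lines from 2 taste papillae of the mouse tongue, the foliate papilla (FoP) and the circumvallate papilla (CVP). The quantity was the interaction, which is the FoP response (knock-out minus wild type, log2) minus the CVP response. All 12 of the 12 RNA sequencing libraries of the series enter it. They are 4 FoP libraries labelled Foxe1 knock-out (clones 2.4 and 2.5, each in duplicate), 2 FoP wild type libraries, 4 CVP libraries labelled Foxe1 knock-out (clones 2.9 and 2.10, each in duplicate) and 2 CVP wild type libraries. A positive interaction means that a gene was higher in FoP knock-out organoids, relative to FoP wild type, than in CVP knock-out organoids relative to CVP wild type.

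Organoids are 3-dimensional cultures grown from epithelial stem cells. In the posterior tongue the foliate and circumvallate papillae carry taste buds in the walls of their trenches, and the ducts of the von Ebner salivary glands open at the base of those trenches, so that epithelium from either papilla can hold lingual keratinocyte, taste and gland programs. Foxe1 belongs to the forkhead family of transcription factors, and its loss disturbs the forming thyroid and palate. The study asked what Foxe1 does in the fate choices of these tongue stem cells. The labels give the modification only as genetic, and the wild types as lines with no clone number, so that genotype and the growth of a line from a single clone cannot be told apart. The labels do not say whether duplicates come from 1 culture. Here each clone and each wild type line is counted as 1 culture. The p-values measure the spread between libraries, part of which may be technical.

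Foxe1 itself (GRCm38 chr4:46343609-46346412, plus strand) had 1471 and 1292 counts in clone 2.4, 707 and 660 in clone 2.5 and 1124 and 989 in FoP wild type libraries. In CVP it had 1527 and 1432 counts in clone 2.9, 487 and 547 in clone 2.10 and 1049 and 1144 in wild type libraries. In both lines 1 clone lay above the wild type libraries and the other below them, and the interaction was 0.02 ± 0.73 (adjusted p = 0.993). The labels do not say which part of the gene was altered, so its transcript counts do not check the knock-out, and knock-out below is the word of the labels. The libraries held 59.3 to 73.6 M counts (units of 1e6) and detected 21421 to 22602 genes. Epithelial markers were high in each library (Epcam 1029 to 1577, Krt5 3885 to 6538 CPM, which is counts per 1e6 counts of the scaled library), the immune marker Ptprc had 0 counts in all 12, and the endothelial marker Cdh5 reached at most 0.0278 CPM. Pecam1, another endothelial marker, had 1.67 to 2.701 CPM in FoP knock-out, 0.305 to 0.356 CPM in FoP wild type, 1.31 to 2.71 CPM in CVP knock-out and 0.454 to 0.722 CPM in CVP wild type libraries, so that it was low but higher in every knock-out than in every wild type library. The summed endothelial list was 5.21 to 32.5 CPM in FoP knock-out, 10.4 to 10.7 CPM in FoP wild type, 5.75 to 23.99 CPM in CVP knock-out and 5.95 to 5.97 CPM in CVP wild type libraries, and the part of such cells in the results was not tested. In these bulk libraries, fewer cells of a type and less RNA per cell cannot be told apart.

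Of 17076 genes tested, 2692 (15.8%) had an interaction past an adjusted p of 0.05 (edgeR quasi-likelihood test, Benjamini-Hochberg adjustment), of which 1243 (7.28%) were higher and 1449 (8.49%) lower in FoP. Their median absolute interaction was 0.57 on the log2 scale, and 724 exceeded a 2-fold difference between the responses. When the test itself asked for more than a 2-fold difference, 8 genes (0.0468%) passed. The calls were then sorted by the responses of the lines. In 195 genes (1.14%) both responses were called and had opposite signs, 98 with FoP up and CVP down and 97 with the reverse. In 424 genes (2.48%) FoP alone responded, meaning that its response was called and that of CVP was neither called nor above 0.5 on the log2 scale. By the same rule CVP alone responded in 1364 genes (7.99%). A further 486 genes (2.85%) moved the same way in both lines by unlike amounts, and 223 (1.31%) met none of these definitions. For comparison, 28.8% of tested genes were called in the FoP response and 46.4% in the CVP response, which share no library. The responses enter the interaction, so these classes describe the same fit and are not further tests.

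The size of these classes rested on the wild type libraries, of which each line has 2, counted here as 1 culture. Left out 1 at a time, FoP wild type 1, FoP wild type 2, CVP wild type 1 and CVP wild type 2 gave, in this order, 1188, 1240, 1103 and 1532 called genes. The opposite genes were then 78, 64, 93 and 99, those of FoP alone 145, 146, 197 and 217, and those of CVP alone 742, 770, 565 and 818. With the duplicates summed to 1 value per culture, 0 genes were called by edgeR at an adjusted p of 0.05 and 2663 had an unadjusted p under 0.05. Among called genes named below by the rule given under processing, Cd68 left aside, the lowest adjusted p was then 0.122. Osr2, Trp63, Mki67, Cdc20, Mcm2, Ltf and Wfdc2, named outside that rule, were not followed under this or the other alternatives.

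**Figure D1:**
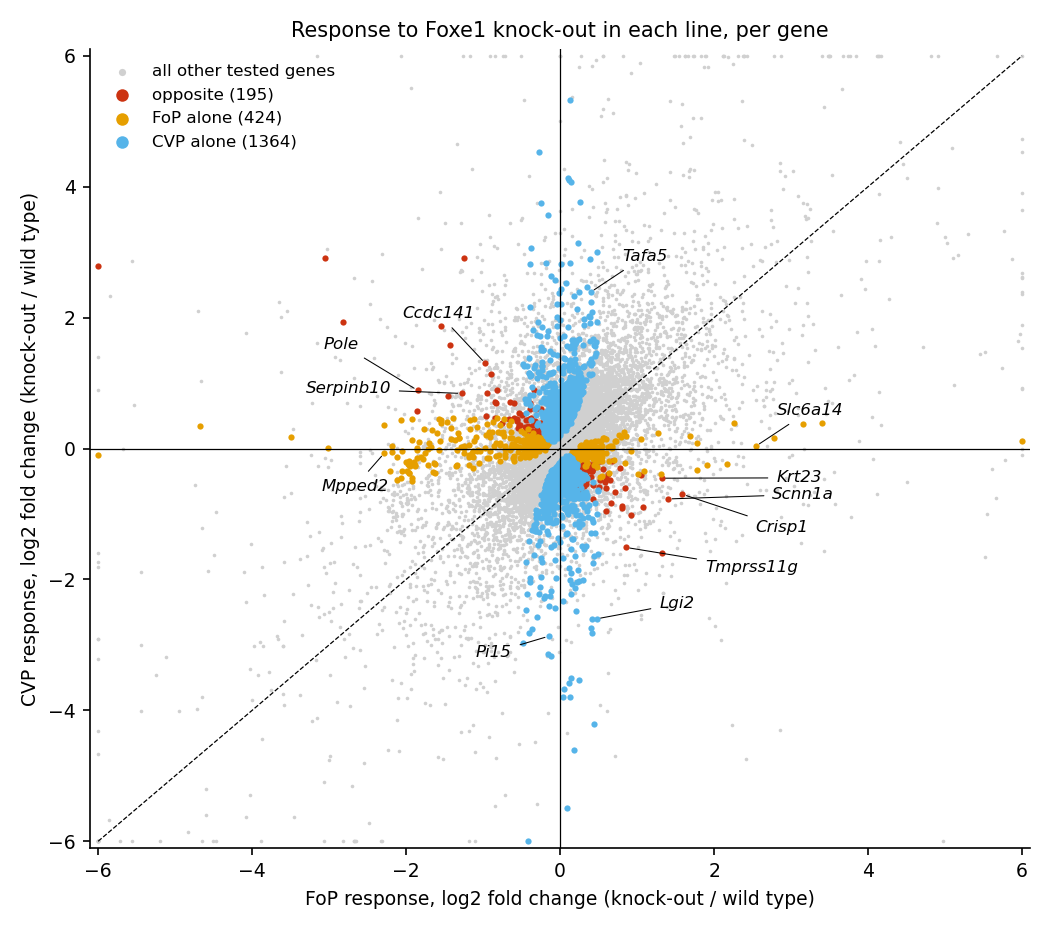
Log2 fold change of knock-out over wild type in FoP (x axis) against CVP (y axis) for the 17076 tested genes, values beyond 6 drawn at 6; on the dashed line the responses are equal. The 195 opposite genes (red) fall at the upper left and lower right, the 424 genes of FoP alone (orange) along the x axis and the 1364 of CVP alone (blue) along the y axis.

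An interaction can also be read across the lines, as the FoP minus CVP difference in knock-out libraries minus that in wild type libraries, and this reading separates genes whose interaction only restates unlike wild type levels. Between the lines, 1140 genes (6.68%) differed in wild type and 4168 (24.4%) in knock-out. A called gene was termed levelled where the wild types differed and the knock-out difference was under 0.5 times theirs, parted where the knock-outs differed and the wild type difference was under 0.5 times theirs, and crossed where both differences were called with opposite signs and neither of these held. Of the 2692 called genes, 537 (3.14% of tested genes) were levelled, 656 (3.84%) parted and 228 (1.34%) crossed, leaving 1271 (7.44%) mixed. A levelled interaction restates the wild types: the lines began apart and ended close. Among the opposite genes 72 were levelled, 48 crossed, 15 parted and 60 mixed. FoP alone held 145 levelled and 39 parted genes, and CVP alone 192 levelled and 346 parted genes. With FoP wild type 1, FoP wild type 2, CVP wild type 1 or CVP wild type 2 left out, in this order, levelled genes numbered 63, 74, 83 and 73, parted genes 229, 250, 234 and 286 and crossed genes 9, 12, 18 and 17.

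Most differences between wild types were not called again, in the same direction, between knock-outs. The share that was called again lay above that over all tested genes. Of the 1140 genes that differed between wild types, 178 (15.6%) differed the same way between knock-outs and 279 (24.5%) differed the opposite way, where over all tested genes 10.97% and 13.4% did. The 1140 genes had a median absolute difference of 0.16 between knock-outs and of 0.44 between wild types, on the log2 scale. Over all tested genes these medians were 0.196 between knock-outs and 0.196 between wild types. The 1140 genes were chosen by their wild type difference, so the larger wild type median follows from that choice. Of the 643 genes higher in FoP wild type, 163 (25.4%) were called lower in FoP knock-out than in CVP knock-out and 67 (10.4%) higher. Of the 497 genes lower in FoP wild type, 116 (23.3%) were called higher in FoP knock-out and 111 (22.3%) lower. Over all tested genes, 12.1% were called higher and 12.3% lower in FoP knock-out than in CVP knock-out. The wild type and the knock-out difference use separate libraries. Across the 17076 genes they had a Pearson correlation of 0.06, a description over genes that share libraries and are not independent replicates.

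**Figure D2:**
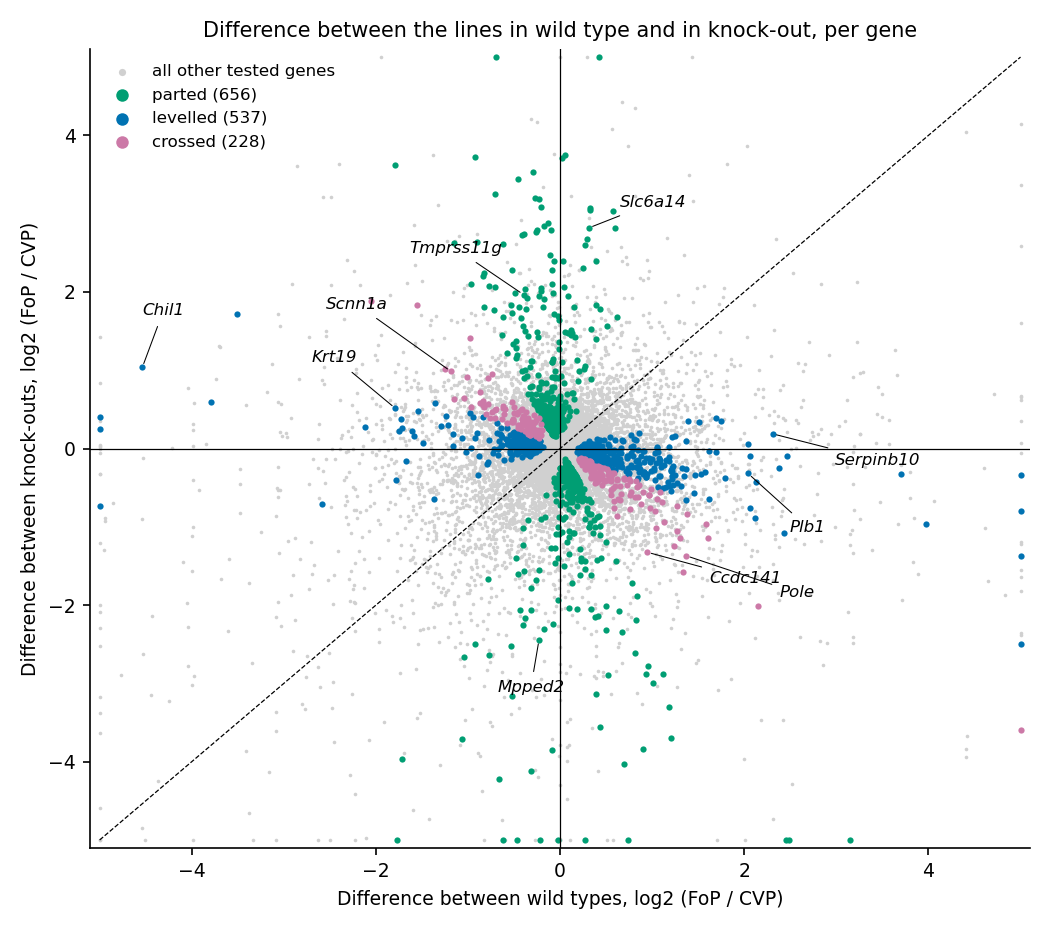
Difference between the lines (log2, FoP over CVP) in wild type (x axis) and in knock-out (y axis) for the 17076 tested genes, values beyond 5 drawn at 5; on the dashed line the interaction is 0. Levelled genes (537, blue) lie along the x axis, parted genes (656, green) along the y axis and crossed genes (228, pink) at the upper left and lower right.

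The 5 largest interactions with FoP up and CVP down, among genes that met the naming rule, belonged to Tmprss11g, Crisp1, Scnn1a, Tgfbr3 and Krt23. In each series of values below, FoP knock-out libraries run clone 2.4, 2.4, 2.5, 2.5 and CVP knock-out libraries 2.9, 2.9, 2.10, 2.10. Scnn1a, the alpha subunit of the epithelial sodium channel, which takes up sodium in ducts and contributes to salt taste, had 19.9, 19, 14.1 and 17.04 CPM in FoP knock-out libraries, against 7.53 and 5.71 CPM in FoP wild type libraries. In CVP the order was reversed, with 7.91, 9.43, 8.24 and 9.79 CPM in knock-out and 15.2 and 14.9 CPM in wild type libraries. No knock-out library overlapped the wild type libraries of its line, and the interaction was 2.17 ± 0.21 (adjusted p = 0.000279), from responses of 1.40 ± 0.16 (adjusted p = 5.1e-05) in FoP and -0.77 ± 0.14 (adjusted p = 0.000743) in CVP. Scnn1a crossed: FoP differed from CVP by 0.99 in knock-out and by -1.19 in wild type (log2, adjusted p = 0.000246 and 0.00368).

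Tgfbr3, or betaglycan, a co-receptor that presents TGF-beta ligands, followed the same order. It had 24.8, 23.8, 30.8 and 26.3 CPM in FoP knock-out libraries, against 14.2 and 13.8 CPM in FoP wild type libraries. Its CVP libraries held 11.1, 13.4, 12.8 and 18.6 CPM in knock-out and 26.5 and 29.97 CPM in wild type. FoP knock-out and CVP wild type libraries were high and the other 6 libraries low, with no overlap, and the interaction was 1.93 ± 0.24 (adjusted p = 0.00108). Krt23, a type I keratin, had 64.5, 69.2, 70.1 and 66.4 CPM in FoP knock-out libraries, against 29.4 and 24.8 CPM in FoP wild type libraries. For Krt23, the CVP values were 29.7, 29.5, 24.9 and 26.6 CPM in knock-out and 38.9 and 36.8 CPM in wild type libraries. The FoP knock-out libraries stood above all others, and the interaction was 1.77 ± 0.12 (adjusted p = 1.4e-05).

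Tmprss11g and Crisp1 were parted, with wild type levels that did not differ past the threshold and knock-out levels that did. Tmprss11g, a transmembrane serine protease of the airway trypsin-like family, had 49.1, 57.3, 69.9 and 70.2 CPM in FoP knock-out libraries, against 35.6 and 32.6 CPM in FoP wild type libraries. Its CVP levels were 18.1, 17.3, 10.1 and 17.6 CPM in knock-out and 45.97 and 43.9 CPM in wild type libraries. The 4 FoP knock-out libraries were highest and the 4 CVP knock-out libraries lowest, with both wild types between them, and the interaction was 2.36 ± 0.32 (adjusted p = 0.0023). Crisp1, a cysteine-rich secretory protein, had 324, 299.7, 399.6 and 281 CPM in FoP knock-out libraries, against 96.2 and 121 CPM in FoP wild type libraries. CVP levels of Crisp1 were 90.1, 109, 83.3 and 126 CPM in knock-out and 149 and 183 CPM in wild type libraries. FoP knock-out libraries were above all others, and the interaction was 2.29 ± 0.28 (adjusted p = 0.00157). None of these 5 calls was lost when a library or a clone was left out.

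**Figure D3:**
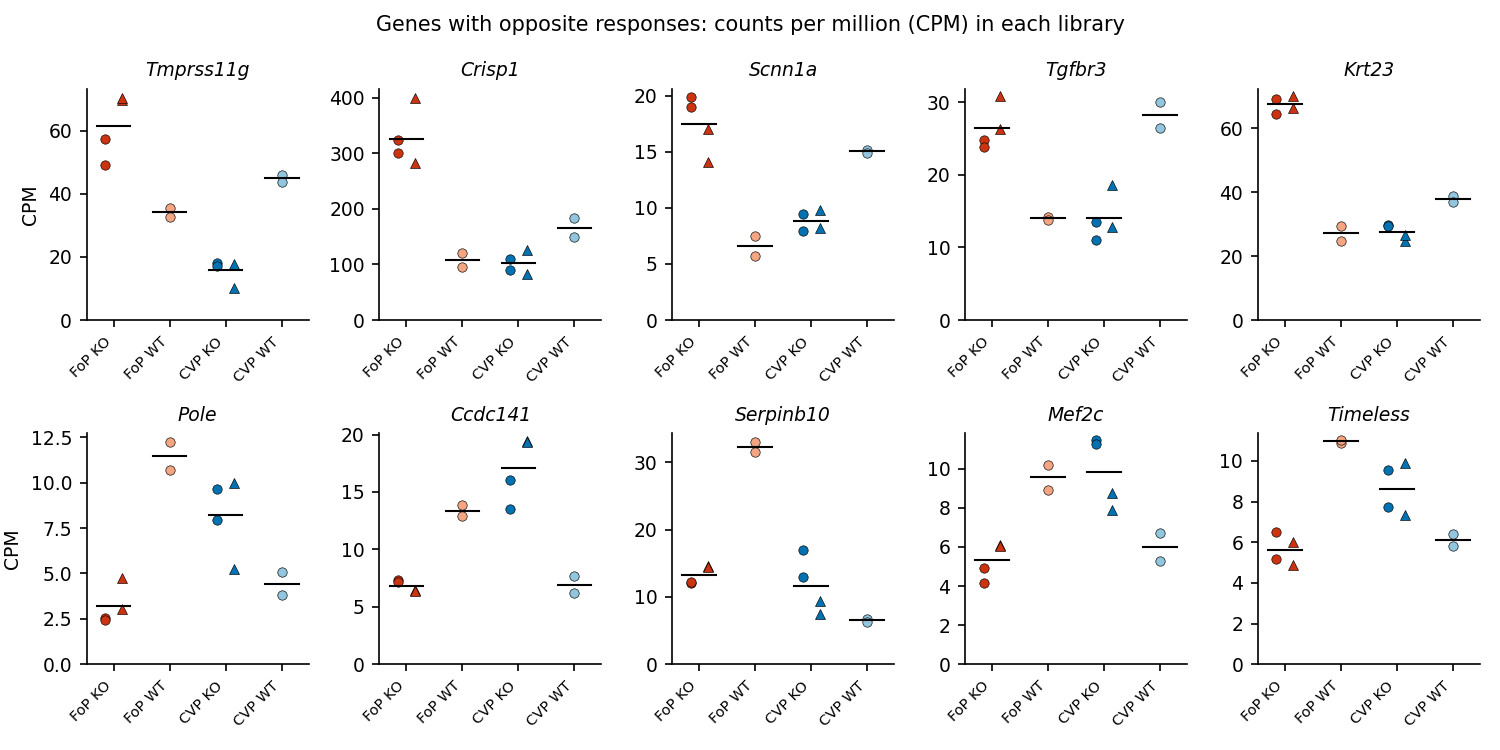
CPM in each library for the 10 opposite genes named by size; circles and triangles are the 2 clones of a knock-out (2.4 and 2.5 in FoP, 2.9 and 2.10 in CVP), circles the wild type libraries, and bars the mean. In the upper row FoP knock-out lies above FoP wild type and CVP knock-out below CVP wild type, and in the lower row the reverse holds, with no overlap in either line.

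With FoP down and CVP up, the 5 largest by the same rule were Pole, Ccdc141, Serpinb10, Mef2c and Timeless. Pole, the catalytic subunit of DNA polymerase epsilon that copies the leading strand, had 2.52, 2.42, 3.07 and 4.74 CPM in FoP knock-out libraries, against 10.7 and 12.2 CPM in FoP wild type libraries. CVP levels of Pole were 9.66, 7.95, 9.998 and 5.26 CPM in knock-out and 3.81 and 5.07 CPM in wild type libraries. FoP wild type and most CVP knock-out libraries were high, the second library of clone 2.10 lay just above the higher CVP wild type library, and the interaction was -2.74 ± 0.42 (adjusted p = 0.00257). Timeless, which protects stalled replication forks, had 6.504, 5.16, 4.86 and 6.02 CPM in FoP knock-out libraries, against 10.9 and 11.05 CPM in FoP wild type libraries. Timeless levels in CVP were 9.54, 7.75, 9.91 and 7.35 CPM in knock-out and 5.799 and 6.399 CPM in wild type libraries. Its knock-out and wild type libraries did not overlap within either line, and the interaction was -1.46 ± 0.22 (adjusted p = 0.00166). Both genes were crossed.

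Ccdc141, a coiled-coil protein, had 7.32, 7.17, 6.44 and 6.39 CPM in FoP knock-out libraries, against 12.9 and 13.8 CPM in FoP wild type libraries. For Ccdc141, the CVP values were 13.6, 16.1, 19.5 and 19.4 CPM in knock-out and 6.24 and 7.65 CPM in wild type libraries. FoP knock-out and CVP wild type libraries shared a low range and the interaction was -2.27 ± 0.21 (adjusted p = 0.000231). Mef2c, a MADS-box transcription factor, had 4.15, 4.94, 6.12 and 6.04 CPM in FoP knock-out libraries, against 10.2 and 8.897 CPM in FoP wild type libraries. Mef2c levels in CVP were 11.4, 11.3, 7.88 and 8.75 CPM in knock-out and 5.26 and 6.69 CPM in wild type libraries. The interaction of Mef2c was -1.57 ± 0.27 (adjusted p = 0.00357), and its differences between the lines were -0.89 ± 0.16 (adjusted p = 0.00205) in knock-out and 0.68 ± 0.22 (adjusted p = 0.0897) in wild type.

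Serpinb10, named as a clade B serine protease inhibitor and typed as a polymorphic pseudogene in the GENCODE M21 annotation, showed an opposite response that restates the wild types. It had 12.1, 12.2, 14.5 and 14.4 CPM in FoP knock-out libraries, against 31.5 and 32.98 CPM in FoP wild type libraries. Its CVP levels were 12.9, 17, 7.41 and 9.39 CPM in knock-out and 6.69 and 6.34 CPM in wild type libraries. The wild types stood 2.31 ± 0.31 (adjusted p = 0.00443) apart on the log2 scale, FoP above CVP, and the knock-outs overlapped, with a difference of 0.19 ± 0.21 (adjusted p = 0.567). The interaction of -2.12 ± 0.37 (adjusted p = 0.00541) stands beside knock-out levels that the 2 lines share. None of the calls of these 5 genes was lost when a library or clone was left out.

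Most of the 195 opposite genes had small responses: in 35 both exceeded 0.5 and in 7 both exceeded 1 on the log2 scale. Osr2, an odd-skipped transcription factor of palate development, was too low for the naming rule and was chosen after its values were seen. It had 2, 4, 6 and 0 counts in FoP knock-out libraries, against 256 and 213 counts in FoP wild type libraries. In CVP it had 40, 85, 6 and 22 counts in knock-out and 2 and 10 counts in wild type libraries. Summed over libraries and scaled for depth, the FoP knock-out level was lower by a factor of 75.1 (95% counting interval 42.6 to 146). The CVP knock-out level was higher by a factor of 6.92 (95% counting interval 3.85 to 13.7), with clone 2.9 holding 40 and 85 of the counts and clone 2.10 6 and 22, so that knock-out and wild type overlapped in CVP but not in FoP. These intervals cover counting error only. The adjusted p of the interaction was 0.00352. The remaining opposite genes included 10 cytosolic ribosomal proteins, taken up below, and Trp63, also chosen after its values were seen. Trp63 encodes p63, the transcription factor that maintains basal cells of stratified epithelia. It had 636, 554, 555 and 515 CPM in FoP knock-out libraries, against 402 and 445 CPM in FoP wild type libraries. CVP levels of Trp63 were 393, 416, 389 and 443 CPM in knock-out and 518 and 520.2 CPM in wild type libraries. The ranges did not overlap within a line and the interaction was 0.76 ± 0.11 (adjusted p = 0.0018). Of 30 basal and stem genes, 8 were called higher and 3 lower in the interaction (7.28% and 8.49% of all tested genes). The basal keratin Krt14, taken up below, was among those called lower.

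FoP alone responded in 424 genes, 164 with a positive and 260 with a negative interaction. The genes named here are parted, so the lines differed more in knock-out than in wild type. Slc6a14, an amino acid transporter, had 25.2, 33.1, 39.3 and 42.3 CPM in FoP knock-out libraries, against 6.52 and 5.47 CPM in FoP wild type libraries. Slc6a14 levels in CVP were 7.196, 4.12, 2.77 and 5.75 CPM in knock-out and 5.89 and 3.79 CPM in wild type libraries, which overlapped. The FoP response was 2.54 ± 0.39 (adjusted p = 0.00119), that of CVP was 0.04 (95% interval -0.77 to 0.84), and the interaction was 2.51 ± 0.51 (adjusted p = 0.0112). The CVP interval is wide, so a CVP response of either sign within it was not detectable in these libraries. Gnao1, the alpha subunit of the G protein Go, had 7.76, 6.998, 8.37 and 8.24 CPM in FoP knock-out libraries, against 4.39 and 4.32 CPM in FoP wild type libraries. For Gnao1, the CVP values were 1.97, 2.41, 2.29 and 3.11 CPM in knock-out and 2.59 and 3.095 CPM in wild type libraries, and the interaction was 1.07 ± 0.25 (adjusted p = 0.0127). B4galt5, a galactosyltransferase of glycolipid synthesis, averaged 14.7 ± 1.86 CPM in FoP knock-out (SD, n = 4) and 7.72 ± 0.997 CPM in FoP wild type libraries (SD, n = 2), with an interaction of 0.96 ± 0.25 (adjusted p = 0.0202).

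Among the genes that fell in FoP alone, Mpped2, a metallophosphoesterase, had 1.73, 1.15, 2.22 and 1.75 CPM in FoP knock-out libraries, against 7.77 and 8.91 CPM in FoP wild type libraries. For Mpped2, the CVP values were 9.24, 10.3, 9.37 and 8.397 CPM in knock-out and 9.97 and 9.58 CPM in wild type libraries. Every FoP knock-out library was below all 8 others, the CVP response was -0.07 (95% interval -0.47 to 0.33), and the interaction was -2.21 ± 0.27 (adjusted p = 0.000684). Mmp13, a collagenase, had 1.52, 1.46, 0.667 and 0.798 CPM in FoP knock-out libraries, against 4.13 and 5.97 CPM in FoP wild type libraries. Its CVP levels, 6.72, 6.88, 5.105 and 3.29 CPM in knock-out and 5.02 and 6.399 CPM in wild type libraries, overlapped. The interaction of Mmp13 was -2.12 ± 0.51 (adjusted p = 0.0165), with a CVP response of -0.06 (95% interval -0.82 to 0.71). Nav3, a neuron navigator protein that binds microtubules, fell in FoP by 1.29 ± 0.21 (adjusted p = 0.000616) with a CVP response of 0.03 (95% interval -0.43 to 0.48) and an interaction of -1.32 ± 0.30 (adjusted p = 0.0117). The call of Slc6a14 was lost without FoP wild type library 2 (adjusted p 0.0603) or CVP wild type library 1 (adjusted p 0.0595). Gnao1 lost its call without FoP wild type library 1 (adjusted p 0.0572), FoP wild type library 2 (adjusted p 0.0594) or CVP wild type library 2 (adjusted p 0.0627). Without FoP wild type library 1 (adjusted p 0.109), CVP wild type library 1 (adjusted p 0.0814) or CVP wild type library 2 (adjusted p 0.0566), B4galt5 was no longer called. The call of Mmp13 was lost without FoP wild type library 2 (adjusted p 0.0807) or CVP wild type library 1 (adjusted p 0.0935). Nav3 lost its call without FoP wild type library 2 (adjusted p 0.0623) or CVP wild type library 1 (adjusted p 0.0704). Slc6a14 (adjusted p 0.0583) and B4galt5 (adjusted p 0.0719) were not called with limma voom with culture as a block.

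CVP alone responded in 1364 genes, 674 with a positive and 690 with a negative interaction. Il1f9, the cytokine interleukin-36 gamma of stressed epithelium, had 6.53, 5.56, 10.1 and 8.001 CPM in FoP knock-out libraries, against 4.55 and 6.76 CPM in FoP wild type libraries, which overlapped. In CVP it fell to 0.791, 0.412, 0.964 and 2.01 CPM in knock-out libraries, against 6.72 and 6.07 CPM in wild type libraries. The interaction was 3.03 ± 0.66 (adjusted p = 0.0127). Pi15, a secreted protein of the CAP family, had 27.6, 26.8, 60.97 and 53.7 CPM in FoP knock-out libraries, against 40.8 and 52.6 CPM in FoP wild type libraries. CVP levels of Pi15 were 6.81, 5.93, 2.94 and 4.73 CPM in knock-out and 34.2 and 40.2 CPM in wild type libraries. In FoP the clones lay on both sides of the wild type, clone 2.4 below and clone 2.5 above, and the FoP response was -0.14 (95% interval -1.05 to 0.76). The interaction of Pi15 was 2.72 ± 0.59 (adjusted p = 0.0164). Lgi2, a secreted leucine-rich repeat protein, had 21.5, 14.4, 23.9 and 18.6 CPM in FoP knock-out libraries, against 11.4 and 16.9 CPM in FoP wild type libraries. CVP levels of Lgi2 were 5.23, 5.29, 2.997 and 2.98 CPM in knock-out and 17.6 and 32.4 CPM in wild type libraries. The CVP wild type libraries differed between themselves, both stood above the knock-outs, and the interaction was 3.08 ± 0.49 (adjusted p = 0.00443).

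Of the genes that rose in CVP alone, Alox12e, an epidermal lipoxygenase, had 56.3, 46.5, 33.5 and 52.3 CPM in FoP knock-out libraries, against 46.5 and 50.5 CPM in FoP wild type libraries. Alox12e levels in CVP were 252, 237, 122 and 112 CPM in knock-out and 51.7 and 46.6 CPM in wild type libraries. Clone 2.9 was higher than clone 2.10 and both were above every other library, with an interaction of -1.92 ± 0.51 (adjusted p = 0.0374). Tafa5, a small secreted chemokine-like protein, had 15.8, 17.2, 9.095 and 9.39 CPM in CVP knock-out and 3.06 and 1.85 CPM in CVP wild type libraries. Its FoP response was 0.40 (95% interval -0.43 to 1.22) and its interaction -1.99 ± 0.52 (adjusted p = 0.0256). Zfp469 is named for a zinc finger protein whose human counterpart is linked to brittle cornea, and GENCODE M21 types its locus as lincRNA, a non-coding RNA. It had 16.9, 13.3, 15.2 and 8.71 CPM in CVP knock-out and 3.05 and 2.71 CPM in CVP wild type libraries, with an interaction of -1.83 ± 0.39 (adjusted p = 0.00982). The call of Il1f9 was lost without FoP wild type library 1 (adjusted p 0.0743) or CVP wild type library 1 (adjusted p 0.053). Pi15 lost its call without any 1 wild type library (adjusted p 0.0508 to 0.081). Without any 1 wild type library (adjusted p 0.0936 to 0.121) or either of clones 2.4 and 2.5, clone 2.4 library 2, clone 2.5 library 1, clone 2.5 library 2, clone 2.9 library 1 or clone 2.9 library 2 (adjusted p 0.0543 to 0.091), Alox12e was no longer called. The call of Tafa5 was lost without FoP wild type library 1 (adjusted p 0.091), FoP wild type library 2 (adjusted p 0.0785) or CVP wild type library 2 (adjusted p 0.108). Zfp469 lost its call without FoP wild type library 1 (adjusted p 0.0501) or CVP wild type library 2 (adjusted p 0.0516). Tafa5 (adjusted p 0.131), Alox12e (adjusted p 0.0898) and Zfp469 (adjusted p 0.116) were not called with limma voom with culture as a block. Tafa5 (adjusted p 0.0869) and Alox12e (adjusted p 0.0739) were not called with genes of low counts kept in the fit.

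**Figure D4:**
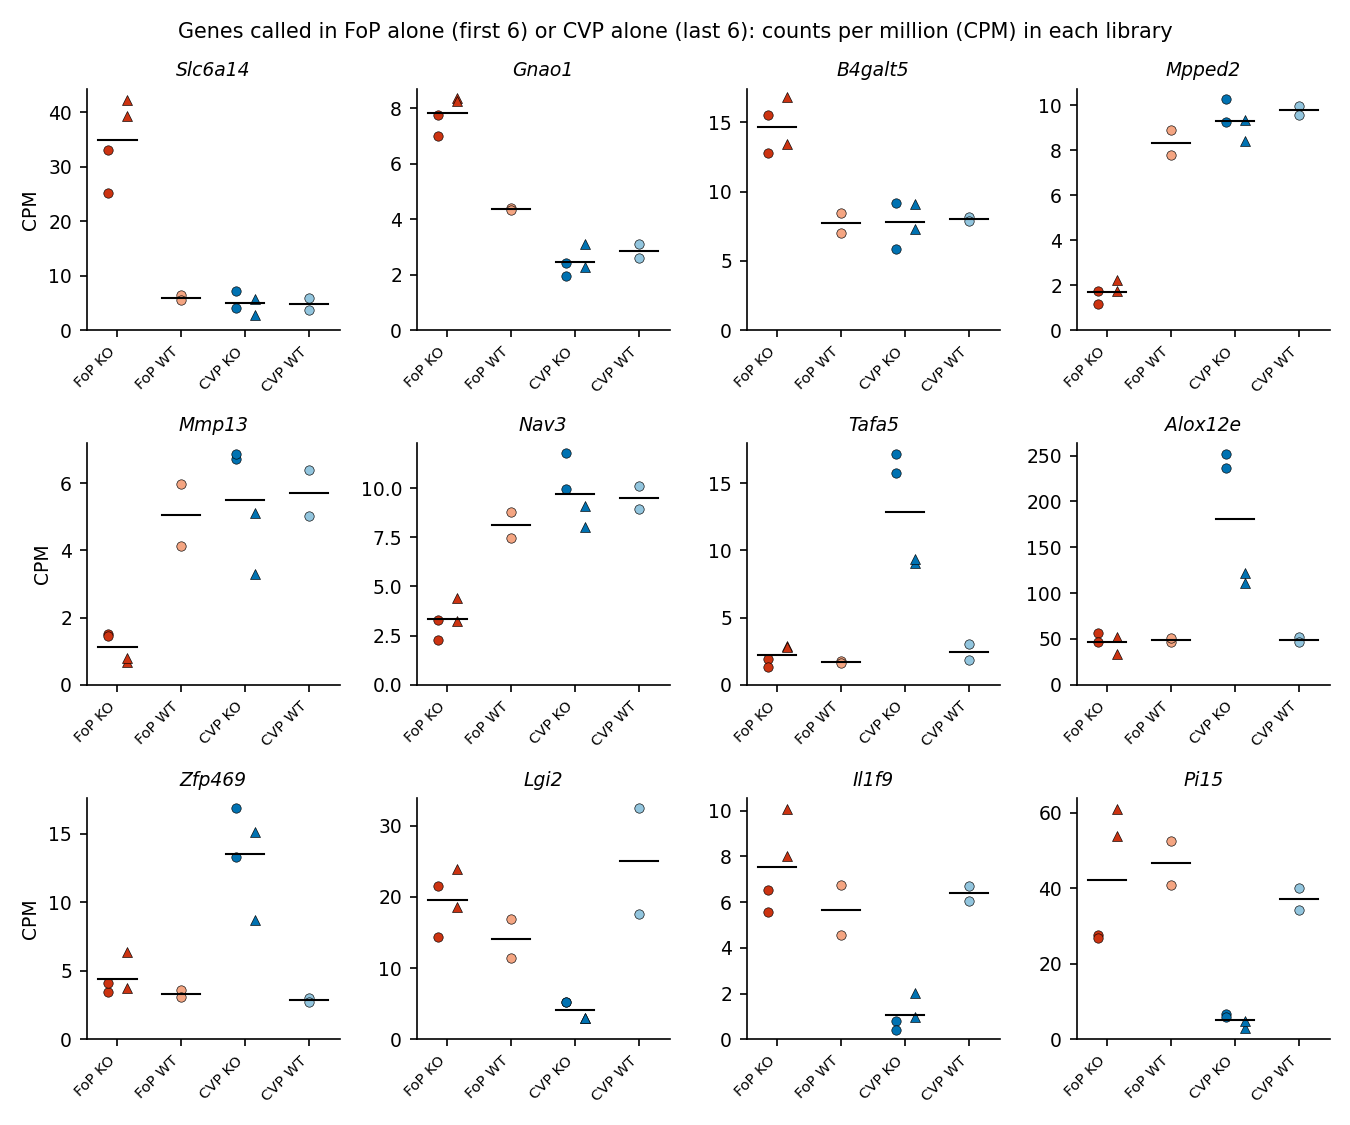
CPM in each library for genes called in FoP alone (Slc6a14 to Nav3) or CVP alone (Tafa5 to Pi15); symbols as circles and triangles for the 2 clones of a knock-out, circles for wild type, and bars for the mean. In the first 6 panels the FoP knock-out libraries stand apart from FoP wild type and in the last 6 the CVP knock-out libraries stand apart from CVP wild type.

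The levelled genes named first, with positive interactions, were high in CVP wild type libraries. Chil1, a chitinase-like secreted protein, had 2.097, 1.95, 2.48 and 1.77 CPM in FoP knock-out libraries, against 1.64 and 2.28 CPM in FoP wild type libraries. For Chil1, the CVP values were 0.496, 0.729, 0.949 and 1.87 CPM in knock-out and 33.8 and 57.1 CPM in wild type libraries. The 2 CVP wild type libraries stood alone, and its interaction of 5.57 ± 0.61 (adjusted p = 0.000943) restated a wild type difference of -4.54 ± 0.51 (adjusted p = 0.00239). Bpifa1, a secreted antimicrobial and surfactant protein, had 0, 6, 4 and 2 counts in FoP knock-out libraries, against 76 and 157 counts in FoP wild type libraries. In CVP it had 0, 4, 2 and 2 counts in knock-out and 1374 and 2176 counts in wild type libraries. It was near 0 in every knock-out library, lower than wild type by a factor of 37.3 in FoP (95% counting interval 20.9 to 73.2) and of 818 in CVP (95% counting interval 415 to 1896). Its called interaction of 4.39 ± 1.11 (adjusted p = 0.0236) stood beside a wild type difference of -3.79 ± 0.52 (adjusted p = 0.0043) and a knock-out difference of 0.60 ± 0.94 (adjusted p = 0.691).

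Krt19, a keratin of simple and ductal epithelium, had 29.3, 35.3, 45.95 and 46.7 CPM in FoP knock-out libraries, against 32.1 and 32.1 CPM in FoP wild type libraries. Krt19 levels in CVP were 25.7, 22.7, 34.6 and 27.2 CPM in knock-out and 95.9 and 126 CPM in wild type libraries. All libraries except the CVP wild type ones shared a range, and the interaction was 2.30 ± 0.31 (adjusted p = 0.00232). Ltbp2, a latent TGF-beta binding protein of the matrix, was also highest in CVP wild type, with an interaction of 2.03 ± 0.44 (adjusted p = 0.0159) and a wild type difference of -1.55 ± 0.36 (adjusted p = 0.0377). Plb1, a phospholipase B of the brush border, had 41.3, 48.4, 47.5 and 52.97 CPM in FoP knock-out libraries, against 28.8 and 27.1 CPM in FoP wild type libraries. CVP levels of Plb1 were 56.4, 57.1, 61.1 and 62.6 CPM in knock-out and 7.498 and 6.08 CPM in wild type libraries. It rose in both lines, and its interaction of -2.36 ± 0.14 (adjusted p = 7.1e-06) came with a wild type difference of 2.04 ± 0.12 (adjusted p = 5.1e-06). The knock-outs of Plb1 also differed, in the reverse order and without overlap, by -0.32 ± 0.08 (adjusted p = 0.0106). Zwilch, of the kinetochore, and Kif15, a mitotic kinesin, were high in FoP wild type. Their interactions were -1.79 ± 0.28 (adjusted p = 0.00206) and -1.70 ± 0.37 (adjusted p = 0.0105), beside wild type differences of 1.32 and 1.27. The call of Bpifa1 was lost without CVP wild type library 2 (adjusted p 0.053) or any of clones 2.4, 2.5 and 2.10, clone 2.4 library 2 or clone 2.5 library 1 (adjusted p 0.0574 to 0.125). Ltbp2 lost its call without FoP wild type library 1 (adjusted p 0.0793), FoP wild type library 2 (adjusted p 0.0534), CVP wild type library 2 (adjusted p 0.0592) or clone 2.9 (adjusted p 0.0614). Without CVP wild type library 2 (adjusted p 0.0583), Kif15 was no longer called. Bpifa1 (adjusted p 0.281) was not called with limma voom with culture as a block. Bpifa1 (adjusted p 0.0774) was not called with genes of low counts kept in the fit.

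Gene groups were then described by their tested members, and each count is to be read beside the share called over all tested genes. Of 50 cytosolic ribosomal protein genes, 48 were called with a positive interaction and 0 with a negative one, where 7.28% and 8.49% of all tested genes were. All 50 lay above 0, with a median of 0.52 against -0.02 over all tested genes, and the called ones ran from 0.37 to 0.92 on the log2 scale. In the FoP response 12 of 50 were called up and 0 down (13.5% and 15.3% of all tested genes), with a median of 0.15. In the CVP response 0 were called up and 46 down (23.5% and 22.9% of all tested genes), with a median of -0.35. The medians per clone were 0.08 and 0.23 in FoP clones 2.4 and 2.5, and -0.34 and -0.37 in CVP clones 2.9 and 2.10. CVP alone held 35 of them, the opposite class 10, and none was levelled. Between knock-outs all 50 were called higher in FoP (12.1% of all tested genes), and between wild types 3 were called lower (2.91%).

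Rps27, a small subunit protein, had 622, 639, 640.5 and 677 CPM in FoP knock-out libraries, against 553 and 516 CPM in FoP wild type libraries. In CVP it had 423, 488, 395 and 508 CPM in knock-out and 731 and 693 CPM in wild type libraries. No library of a knock-out overlapped its wild type, and the interaction was 0.92 ± 0.13 (adjusted p = 0.00111). The next by size were Rps29 (0.72 ± 0.12), Rpl17 (0.69 ± 0.12) and Rps28 (0.67 ± 0.14). These genes have processed pseudogenes close in sequence, and their counts may be split among copies. The share of all counts in ribosomal protein genes was 4.12 to 4.56% in FoP knock-out, 3.82 to 4.04% in FoP wild type, 3.37 to 3.81% in CVP knock-out and 4.23 to 4.39% in CVP wild type libraries. The share in the nuclear RNAs Malat1 and Neat1 was 0.0124 to 0.0249% in FoP knock-out, 0.0169 to 0.0182% in FoP wild type, 0.0235 to 0.0397% in CVP knock-out and 0.00736 to 0.00874% in CVP wild type libraries; it was higher in CVP knock-out than in CVP wild type libraries, while the FoP knock-out range spanned that of FoP wild type. The part of this share in the result was not tested. The call of Rps28 was lost without FoP wild type library 2 (adjusted p 0.0573) or CVP wild type library 1 (adjusted p 0.0582). The count of 48 was 22 without CVP wild type library 1 and 25 without FoP wild type library 2.

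Cell cycle genes fell further in FoP. Of 39 tested members, 27 had a called negative interaction and 0 a positive one, with a median of -1.14 against -0.02 over all tested genes. In the FoP response 0 of 39 were called up and 37 down (13.5% and 15.3% of all tested genes), with a median of -1.81, and in the CVP response 1 up and 17 down (23.5% and 22.9%), with a median of -0.57. The clone medians were -2.07 and -1.63 for FoP clones 2.4 and 2.5, and -0.46 and -0.71 for CVP clones 2.9 and 2.10. The wild types were unlike as well: 14 of 39 were called higher in FoP wild type and 0 lower (3.77% and 2.91% of all tested genes), with a median difference of 0.82. Between knock-outs 2 were called higher and 11 lower in FoP, with a median of -0.28. By level, 9 of the 27 were levelled, 2 crossed, 1 parted and 15 mixed. The summed level of the list was 547 to 687 CPM in FoP knock-out, 1496 to 1532 CPM in FoP wild type, 608 to 908 CPM in CVP knock-out and 936 to 973 CPM in CVP wild type libraries, so that both knock-outs lay in a shared range and FoP wild type stood apart.

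Mcm5, a subunit of the replicative helicase, had 6.21, 6.67, 9.99 and 12.03 CPM in FoP knock-out libraries, against 24.3 and 27.9 CPM in FoP wild type libraries. For Mcm5, the CVP values were 27.9, 16.9, 24.2 and 12.2 CPM in knock-out and 10.98 and 11.4 CPM in wild type libraries. The FoP libraries separated by genotype, the CVP knock-out libraries all lay above wild type but spread widely, and the interaction was -2.44 ± 0.50 (adjusted p = 0.0114). Foxm1, the forkhead factor that drives genes of the G2 and M phases, had 4.39, 5.403, 6.63 and 5.94 CPM in FoP knock-out libraries, against 20.8 and 20.4 CPM in FoP wild type libraries. For Foxm1, the CVP values were 9.34, 7.49, 8.54 and 5.92 CPM in knock-out and 9.43 and 9.11 CPM in wild type libraries. Foxm1 was levelled, with an interaction of -1.64 ± 0.25 (adjusted p = 0.00185) and a CVP response of -0.24 (95% interval -0.62 to 0.13). Bub1, of the spindle checkpoint, and Kif11, the kinesin that separates spindle poles, had interactions of -1.66 ± 0.41 and -1.60 ± 0.41. Mki67, the proliferation marker Ki-67, was chosen after its values were seen and had 24.9, 22.7, 27.7 and 31.3 CPM in FoP knock-out libraries, against 103 and 105 CPM in FoP wild type libraries. CVP levels of Mki67 were 50.6, 37.2, 41.9 and 25.3 CPM in knock-out and 48.8 and 51.9 CPM in wild type libraries. FoP wild type alone was high, and the interaction was -1.59 ± 0.32 (adjusted p = 0.0108). The call of Mcm5 was lost without CVP wild type library 1 (adjusted p 0.0621). Bub1 lost its call without any 1 wild type library (adjusted p 0.0594 to 0.0889) or clone 2.9 (adjusted p 0.0581). Without any 1 wild type library (adjusted p 0.0671 to 0.102) or clone 2.4 (adjusted p 0.06), Kif11 was no longer called. Bub1 (adjusted p 0.0537) and Kif11 (adjusted p 0.0762) were not called with genes of low counts kept in the fit. The count of 27 was 8 without CVP wild type library 1, 12 without FoP wild type library 1 or FoP wild type library 2, 14 without CVP wild type library 2 and 16 without clone 2.4.

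Promoters of Mki67, Kif11, Cdc20 and Mcm2, cell cycle genes called lower in the interaction, are printed as examples and do not stand for the list. Their CVP responses were unlike, with 0.36 for Mcm2 and -0.38 for Mki67 (neither called) and -0.79 for Cdc20 (called). Each sequence is the 200 bases before the gene's start, from RefSeq with the GRCm38.p6 build, written 5′ to 3′ on the gene's strand. Capitals mark CCAAT or its complement ATTGG, the box bound by the factor NF-Y, and TTTGAA or its complement TTCAAA, the core of the cell cycle homology region (CHR). Mki67 (chr7:135716380-135716579, minus strand), Kif11 (chr19:37376182-37376381, plus strand), Cdc20 (chr4:118437344-118437543, minus strand) and Mcm2 (chr6:88898781-88898980, minus strand) hold both.
Mki67: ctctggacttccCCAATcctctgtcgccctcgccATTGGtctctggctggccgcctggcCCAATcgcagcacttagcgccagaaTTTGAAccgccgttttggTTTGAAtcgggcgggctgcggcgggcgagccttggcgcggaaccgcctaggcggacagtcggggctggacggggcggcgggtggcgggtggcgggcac
Kif11: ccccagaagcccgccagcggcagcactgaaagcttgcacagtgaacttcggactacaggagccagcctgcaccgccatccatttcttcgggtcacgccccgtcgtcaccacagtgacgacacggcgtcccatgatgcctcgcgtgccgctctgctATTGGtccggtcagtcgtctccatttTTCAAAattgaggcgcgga
Cdc20: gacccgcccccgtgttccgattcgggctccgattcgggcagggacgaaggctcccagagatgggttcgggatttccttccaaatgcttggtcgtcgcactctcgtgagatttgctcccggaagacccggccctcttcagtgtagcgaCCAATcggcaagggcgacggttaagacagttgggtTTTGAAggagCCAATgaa
Mcm2: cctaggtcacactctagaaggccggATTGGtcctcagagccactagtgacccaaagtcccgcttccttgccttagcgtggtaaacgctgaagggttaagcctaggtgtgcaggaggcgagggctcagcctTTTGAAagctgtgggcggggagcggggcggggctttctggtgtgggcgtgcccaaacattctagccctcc
Over windows of 250 bases before to 50 after the start, CCAAT in either orientation was in 18 of 21 (85.7%) promoters of the list genes called lower that RefSeq's table holds, and in 38.6% of the 11619 promoters of tested genes. TTTGAA in either orientation was in 9 of 21 (42.9%), against 12.3% of all. For the forkhead motif TGTTTAC, also in either orientation, 0 of 146 promoters of opposite genes held it, 3.3% of those of FoP alone, 1.6% of those of CVP alone, 3.8% of parted and 2.2% of levelled genes, against 2.5% of all promoters. A match is a description of the letters and not a site. The interactions of Cdc20 and Mcm2, chosen after their values were seen for this display, were -1.20 ± 0.32 (adjusted p = 0.0325) and -1.02 ± 0.21 (adjusted p = 0.00872).

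Saliva products were lower in FoP wild type than in CVP wild type in 11 of 25 tested genes. Of 55 listed, 25 passed the filter on low counts, which a gene can pass through wild type libraries alone. Bpifa1, for example, had 1374 and 2176 counts in CVP wild type and 0, 4, 2 and 2 in CVP knock-out libraries. The counts below therefore describe the genes kept by that filter, and its part in their direction was not tested. Of 25 tested, 8 had a positive and 2 a negative interaction past the threshold (40.0% called, against 15.8% of all tested genes), with a median of 1.16. Over all tested genes, 7.28% were called higher and 8.49% lower. The FoP response was called up in 5 and down in 12 (13.5% and 15.3% of all tested genes), with a median of -0.72, and the CVP response up in 4 and down in 15 (23.5% and 22.9%), with a median of -1.31. Between wild types 0 were higher and 11 lower in FoP (3.77% and 2.91% of all tested genes), with a median of -1.52, and between knock-outs 2 were higher and 6 lower (12.1% and 12.3%), with a median of -0.16. Wfdc2, a secreted protease inhibitor of glands, was an opposite gene, chosen after its values were seen, with 1159.8, 988, 1405 and 1291 CPM in FoP knock-out libraries, against 750.5 and 846 CPM in FoP wild type libraries. Wfdc2 levels in CVP were 926, 1112, 994 and 1376 CPM in knock-out and 1509.8 and 1827 CPM in wild type libraries. It was levelled, with an interaction of 1.20 ± 0.24 (adjusted p = 0.0083) and a knock-out difference of 0.14 ± 0.14 (adjusted p = 0.518). Ltf, the iron-binding protein lactoferrin, also chosen after its values were seen, had 10496, 10155, 11958 and 10025 CPM in FoP knock-out libraries, against 4437 and 4387 CPM in FoP wild type libraries. For Ltf, the CVP values were 5880.0, 7341, 8394 and 10789 CPM in knock-out and 6294 and 7403 CPM in wild type libraries. Ltf rose in FoP alone, with an interaction of 1.03 ± 0.26 (adjusted p = 0.0203).

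Dmbt1, a scavenger receptor protein of saliva, fell in both lines. It had 1.29, 1.08, 0.636 and 0.885 CPM in FoP knock-out libraries, against 7.99 and 11.2 CPM in FoP wild type libraries. CVP levels of Dmbt1 were 10.6, 9.09, 16.9 and 15.3 CPM in knock-out and 39.7 and 41.3 CPM in wild type libraries. FoP was the lower line in both genotypes, and the interaction was -1.65 ± 0.40 (adjusted p = 0.0215). Pigr, the receptor that carries IgA into saliva, had 4.76, 3.95, 30.1 and 19.9 CPM in FoP knock-out libraries, against 18.03 and 24.3 CPM in FoP wild type libraries. Its CVP levels were 6.34, 4.78, 4.68 and 5.88 CPM in knock-out and 105 and 142 CPM in wild type libraries. The FoP clones disagreed, clone 2.4 being far below clone 2.5, and the interaction was 3.98 ± 1.07 (adjusted p = 0.0397). Wfdc18, a whey acidic protein relative, had 182, 129, 349 and 140.3 CPM in CVP knock-out and 57.9 and 55.8 CPM in CVP wild type libraries, with an interaction of -2.54 ± 0.59 (adjusted p = 0.0226). The call of Dmbt1 was lost without FoP wild type library 2 (adjusted p 0.0939), CVP wild type library 1 (adjusted p 0.0882), CVP wild type library 2 (adjusted p 0.0669) or clone 2.5 (adjusted p 0.0673). Pigr lost its call without any 1 wild type library (adjusted p 0.0929 to 0.157) or either of clones 2.9 and 2.10, clone 2.5 library 2, clone 2.9 library 1, clone 2.9 library 2, clone 2.10 library 1 or clone 2.10 library 2 (adjusted p 0.0581 to 0.107). Without any 1 wild type library (adjusted p 0.0685 to 0.0949) or either of clones 2.4 and 2.5 (adjusted p 0.0533 to 0.0572), Wfdc18 was no longer called. Pigr (adjusted p 0.0675), Wfdc18 (adjusted p 0.0755) and Dmbt1 (adjusted p 0.0755) were not called with limma voom with culture as a block. Pigr (adjusted p 0.0728) and Dmbt1 (adjusted p 0.0698) were not called with genes of low counts kept in the fit. The count of 8 was 3 without CVP wild type library 2, 4 without FoP wild type library 1 and 5 without clone 2.4 or FoP wild type library 2. The count of 2 was 0 without clone 2.5, FoP wild type library 2, CVP wild type library 1 or CVP wild type library 2, 1 without FoP wild type library 1 and 4 without clone 2.9.

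Of 29 chemokines and cytokines, 4 were called up and 4 down in the FoP response (13.5% and 15.3% of all tested genes), and 5 up and 10 down in the CVP response (23.5% and 22.9% of all tested genes). In the interaction 7 were called higher and 5 lower (7.28% and 8.49% of all tested genes), with a median of 0.31, and 8 of the 12 belonged to CVP alone. Il1a, interleukin-1 alpha, had 28.7, 28.2, 31.2 and 32.99 CPM in FoP knock-out libraries, against 39.7 and 40.4 CPM in FoP wild type libraries. Il1a levels in CVP were 11.7, 8.55, 3.45 and 5.74 CPM in knock-out and 49.5 and 54.5 CPM in wild type libraries. Both lines were lower in knock-out without overlap, but the FoP response of -0.40 (95% interval -1.18 to 0.38) was not called, and the interaction was 2.42 ± 0.51 (adjusted p = 0.014). Cxcl2, a neutrophil attractant, had 23.5, 19.1, 14.98 and 9.01 CPM in FoP knock-out libraries, against 15.6 and 19.4 CPM in FoP wild type libraries. CVP levels of Cxcl2 were 3.94, 2.82, 2.17 and 3.73 CPM in knock-out and 15.8 and 18.4 CPM in wild type libraries. Its FoP libraries overlapped, and the interaction was 2.37 ± 0.49 (adjusted p = 0.0117). Csf3, the granulocyte growth factor, belonged to CVP alone with an interaction of 1.94 ± 0.36 (adjusted p = 0.00748). Cx3cl1, or fractalkine, was opposite and levelled, with an interaction of 0.71 ± 0.10 (adjusted p = 0.00119) and a knock-out difference of -0.01 ± 0.06 (adjusted p = 0.933). The call of Il1a was lost without FoP wild type library 1 (adjusted p 0.067) or FoP wild type library 2 (adjusted p 0.0643). Cxcl2 lost its call without FoP wild type library 1 (adjusted p 0.0642). The count of 7 was 2 without FoP wild type library 1 and 4 without FoP wild type library 2. The count of 5 was 2 without FoP wild type library 1, FoP wild type library 2 or CVP wild type library 1 and 3 without clone 2.4 or CVP wild type library 2.

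H2-Ab1, a chain of MHC class II, had 34.2, 33.9, 51.8 and 61.9 CPM in FoP knock-out libraries, against 52.2 and 48.1 CPM in FoP wild type libraries. For H2-Ab1, the CVP values were 13.9, 15.8, 8.79 and 13.4 CPM in knock-out and 72.7 and 64.4 CPM in wild type libraries. It fell in CVP alone, with an interaction of 2.26 ± 0.40 (adjusted p = 0.00726). Of 20 MHC genes, 5 were called higher and 0 lower in the interaction (7.28% and 8.49% of all tested genes), and their median was 0.30. B2m, the light chain of class I, had an interaction of 0.79 ± 0.19, the class I heavy chain H2-D1 of 0.63 ± 0.16 and H2-T23 of 0.37 ± 0.07. The MHC heavy chains are close in sequence, so their counts may be shared. H2-Ab1 is also a marker of immune cells, and the summed level of the immune list was 139 to 221 CPM in FoP knock-out, 253 to 282 CPM in FoP wild type, 80.6 to 127 CPM in CVP knock-out and 392 to 457 CPM in CVP wild type libraries. The part of immune cells was not tested beyond their defining markers, of which Ptprc had 0 counts in all 12 libraries and Cd3e and Adgre1 reached at most 0.0317 and 0.0304 CPM. Of 15 listed immune genes 7 passed the filter on low counts, of which 2 were called higher in the interaction (H2-Ab1 and Cd68) and 0 lower. The interaction of Cd68 was 1.23 and ran from 1.10 to 1.37 with 1 library or clone left out, losing its call in 1 such run. The immune count of 2 was 1 without FoP wild type library 2. The call of B2m was lost without any 1 wild type library (adjusted p 0.0559 to 0.0769). H2-D1 lost its call without FoP wild type library 1 (adjusted p 0.0749), FoP wild type library 2 (adjusted p 0.0688), CVP wild type library 1 (adjusted p 0.0828) or clone 2.9 (adjusted p 0.0545). B2m (adjusted p 0.0632) and H2-D1 (adjusted p 0.0547) were not called with genes of low counts kept in the fit. The count of 5 was 2 without FoP wild type library 1, FoP wild type library 2 or CVP wild type library 1, 3 without CVP wild type library 2 and 8 without clone 2.5.

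Of 9 NADPH oxidase genes, 4 were called higher and 0 lower (7.28% and 8.49% of all tested genes), with a median of 0.47. Duox1, a dual oxidase that releases hydrogen peroxide at epithelial surfaces, was opposite. It had 78.8, 76.4, 73.03 and 71.7 CPM in FoP knock-out libraries, against 50.6 and 53.8 CPM in FoP wild type libraries. CVP levels of Duox1 were 52.4, 49.3, 39.7 and 44.4 CPM in knock-out and 68.02 and 61.6 CPM in wild type libraries. Knock-out and wild type did not overlap in either line, and the interaction was 1.00 ± 0.13 (adjusted p = 0.000923). Duoxa2, the maturation factor of Duox2, had 2.42, 2.01, 28.6 and 21.1 CPM in FoP knock-out libraries, against 8.01 and 8.51 CPM in FoP wild type libraries. Its CVP levels were 0.713, 0.665, 1.02 and 1.99 CPM in knock-out and 29.6 and 27.7 CPM in wild type libraries. The FoP clones lay on opposite sides of their wild type, and the interaction was 5.41 ± 1.54 (adjusted p = 0.0481). Cybb, the catalytic subunit of the phagocyte oxidase, had 0.942, 0.774, 4.77 and 3.32 CPM in FoP knock-out libraries, against 13.03 and 17.5 CPM in FoP wild type libraries. In CVP it had 0.512, 0.586, 0.452 and 0.742 CPM in knock-out and 53.5 and 84.4 CPM in wild type libraries. It fell in both lines, further in CVP, with an interaction of 4.26 ± 0.94 (adjusted p = 0.0179). Duoxa1, the maturation factor of Duox1, had an interaction of 0.45 ± 0.13 (adjusted p = 0.0382). The call of Duoxa2 was lost without any 1 wild type library (adjusted p 0.0975 to 0.173) or either of clones 2.9 and 2.10, clone 2.5 library 1, clone 2.5 library 2, clone 2.9 library 1, clone 2.9 library 2, clone 2.10 library 1 or clone 2.10 library 2 (adjusted p 0.0516 to 0.14). Cybb lost its call without FoP wild type library 1 (adjusted p 0.0848), FoP wild type library 2 (adjusted p 0.0665), CVP wild type library 2 (adjusted p 0.0583) or either of clones 2.9 and 2.10 (adjusted p 0.0594 to 0.0691). Without any 1 wild type library (adjusted p 0.0852 to 0.141) or clone 2.5, clone 2.5 library 1, clone 2.5 library 2 or clone 2.10 library 2 (adjusted p 0.0531 to 0.0951), Duoxa1 was no longer called. Duoxa2 (adjusted p 0.163), Cybb (adjusted p 0.0817) and Duoxa1 (adjusted p 0.0541) were not called with limma voom with culture as a block. Duoxa2 (adjusted p 0.0891) was not called with genes of low counts kept in the fit. The count of 4 was 1 without FoP wild type library 1, FoP wild type library 2 or CVP wild type library 2 and 2 without clone 2.9, clone 2.10, clone 2.5 library 1, clone 2.5 library 2, clone 2.10 library 2 or CVP wild type library 1.

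Of 47 differentiated keratinocyte genes tested, 5 were called higher and 2 lower, with a median of 0.22. These 14.9% of the list lie close to the 15.8% of all tested genes (7.28% higher and 8.49% lower), so that the count is not a result about the list. Tgm1, the transglutaminase that cross-links the cornified envelope, had 23.5, 32.6, 23.8 and 31.1 CPM in FoP knock-out libraries, against 30.1 and 26.3 CPM in FoP wild type libraries. Tgm1 levels in CVP were 11.4, 10.2, 7.85 and 10.5 CPM in knock-out and 27.3 and 24.1 CPM in wild type libraries. It fell in CVP alone, with an interaction of 1.34 ± 0.23 (adjusted p = 0.004) and a FoP response of -0.02 (95% interval -0.38 to 0.33). Krtdap, a keratinocyte differentiation protein, had 6.38, 8.86, 3.86 and 7.27 CPM in FoP knock-out libraries, against 38.1 and 47.9 CPM in FoP wild type libraries. For Krtdap, the CVP values were 1.13, 0.602, 0.663 and 0.8196 CPM in knock-out and 28.8 and 28.9 CPM in wild type libraries. It fell in both lines, further in CVP, with an interaction of 2.46 ± 0.42 (adjusted p = 0.00493). Sprr2d, a small proline-rich envelope protein, had 35.98, 46.5, 164 and 119.5 CPM in FoP knock-out libraries, against 16.7 and 20.9 CPM in FoP wild type libraries. Its interaction was 3.69 ± 0.97 (adjusted p = 0.0364), with clone 2.5 far above clone 2.4 in FoP. Pkp1, a desmosomal plaque protein, rose in CVP alone, with an interaction of -0.48 ± 0.10 (adjusted p = 0.00753). The call of Sprr2d was lost without any 1 wild type library (adjusted p 0.0887 to 0.143) or either of clones 2.9 and 2.10, clone 2.5 library 2, clone 2.9 library 1, clone 2.9 library 2 or clone 2.10 library 1 (adjusted p 0.0579 to 0.103). Sprr2d (adjusted p 0.154) was not called with limma voom with culture as a block. Sprr2d (adjusted p 0.0652) was not called with genes of low counts kept in the fit. The count of 5 was 2 without FoP wild type library 1, FoP wild type library 2 or CVP wild type library 1, 3 without clone 2.5 library 2 or CVP wild type library 2, 8 without clone 2.4 and 11 without clone 2.9. The count of 2 was 1 without clone 2.9, FoP wild type library 1 or CVP wild type library 2 and 5 without clone 2.10.

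Basal and stem genes had 8 calls higher and 3 lower among 30 (7.28% and 8.49% of all tested genes), with a median of 0.05. Krt14, a keratin of basal cells, had 2694, 2989, 3149 and 3899.7 CPM in FoP knock-out libraries, against 2774 and 2776 CPM in FoP wild type libraries. For Krt14, the CVP values were 5422, 4091, 5116 and 3830.1 CPM in knock-out and 1878 and 1687 CPM in wild type libraries. FoP libraries overlapped, CVP libraries did not, and the interaction was -1.17 ± 0.22 (adjusted p = 0.00564). Cd34, a stem cell surface glycoprotein of the hair follicle, fell in both lines. It had 11.97, 7.79, 8.597 and 11.1 CPM in FoP knock-out libraries, against 58.1 and 72.1 CPM in FoP wild type libraries. CVP levels of Cd34 were 3.77, 2.85, 2.71 and 4.28 CPM in knock-out and 46.04 and 57.4 CPM in wild type libraries, with an interaction of 1.20 ± 0.30 (adjusted p = 0.0238). Igfbp5, an IGF-binding protein, rose in both lines from unlike wild types. It had 419, 428, 729 and 801 CPM in FoP knock-out libraries, against 27.5 and 34.2 CPM in FoP wild type libraries. CVP levels of Igfbp5 were 536, 383, 652 and 412 CPM in knock-out and 103 and 101 CPM in wild type libraries. The knock-outs overlapped, and the levelled interaction was 1.98 ± 0.46 (adjusted p = 0.0207). Ngfr, the low-affinity neurotrophin receptor, had an interaction of 1.82 ± 0.47 (adjusted p = 0.0333). The call of Cd34 was lost without FoP wild type library 1 (adjusted p 0.106), CVP wild type library 2 (adjusted p 0.0905) or either of clones 2.5 and 2.9 (adjusted p 0.0516 to 0.0691). Igfbp5 lost its call without any 1 wild type library (adjusted p 0.0579 to 0.0944) or clone 2.9 (adjusted p 0.065). Without any 1 wild type library (adjusted p 0.0915 to 0.127) or either of clones 2.4 and 2.9, clone 2.4 library 1, clone 2.4 library 2, clone 2.5 library 1 or clone 2.9 library 1 (adjusted p 0.0555 to 0.0934), Ngfr was no longer called. Igfbp5 (adjusted p 0.0579), Ngfr (adjusted p 0.062) and Cd34 (adjusted p 0.0707) were not called with limma voom with culture as a block. Ngfr (adjusted p 0.0651) and Cd34 (adjusted p 0.0696) were not called with genes of low counts kept in the fit. The count of 8 was 1 without FoP wild type library 1 or CVP wild type library 2, 4 without FoP wild type library 2 or CVP wild type library 1 and 5 without clone 2.9. The count of 3 was 1 without FoP wild type library 1, FoP wild type library 2 or CVP wild type library 2 and 5 without clone 2.5 or clone 2.10 library 2.

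Matrix genes with a called interaction all had the lower response in FoP. Of 42 tested, 0 were called higher and 9 lower in the interaction (7.28% and 8.49% of all tested genes), with a median of -0.61. In the FoP response 11 were called up and 5 down (13.5% and 15.3% of all tested genes), with a median of 0.11, and in the CVP response 21 up and 4 down (23.5% and 22.9%), with a median of 0.88. Fbn1, or fibrillin 1, had 41.6, 39.3, 45.05 and 51.6 CPM in FoP knock-out libraries, against 28.1 and 24.5 CPM in FoP wild type libraries. In CVP it had 202, 174, 279 and 186 CPM in knock-out and 24.7 and 30.6 CPM in wild type libraries. The wild types shared a level, both knock-outs rose, and the interaction was -2.17 ± 0.27 (adjusted p = 0.00173). Smoc1, a calcium-binding matricellular protein, had 0.729, 0.4799, 1.05 and 0.833 CPM in FoP knock-out libraries, against 0.407 and 0.599 CPM in FoP wild type libraries. Smoc1 levels in CVP were 9.27, 6.46, 22.9 and 11.7 CPM in knock-out and 0.454 and 0.167 CPM in wild type libraries. The rise was in the CVP clones, with a FoP response of 0.62 (95% interval -0.67 to 1.92) and an interaction of -4.72 ± 0.84 (adjusted p = 0.00599). Col11a1, a chain of fibrillar collagen XI, had an interaction of -3.44 ± 0.78 (adjusted p = 0.02), and Col12a1, of collagen XII, a levelled one of -1.56 ± 0.29 (adjusted p = 0.00773). The fibroblast list summed to 2881 to 6043 CPM in FoP knock-out, 904 to 1036 CPM in FoP wild type, 3098 to 4967 CPM in CVP knock-out and 1371 to 1636 CPM in CVP wild type libraries, and the fibroblast marker Pdgfra to 2.54 to 3.96 CPM in FoP knock-out, 0.857 to 1.37 CPM in FoP wild type, 3.52 to 5.26 CPM in CVP knock-out and 0.972 to 1.16 CPM in CVP wild type libraries. Of 15 listed fibroblast genes 9 passed the filter on low counts, of which 0 were called higher and 2 lower in the interaction (Fbn1 and Vim); the part of such cells was not tested. The call of Col11a1 was lost without any 1 wild type library (adjusted p 0.0535 to 0.0964) or clone 2.4 (adjusted p 0.0519). Smoc1 (adjusted p 0.258) and Col11a1 (adjusted p 0.115) were not called with limma voom with culture as a block.

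In the Wnt list 3 of 19 were called higher and 3 lower (31.6% called, against 15.8% of all tested genes). Sfrp1, a secreted Wnt antagonist, had 398, 319, 374 and 307 CPM in FoP knock-out libraries, against 96.7 and 108 CPM in FoP wild type libraries. For Sfrp1, the CVP values were 168, 178, 177 and 199 CPM in knock-out and 153 and 189 CPM in wild type libraries. It rose in FoP alone and crossed, with an interaction of 1.69 ± 0.16 (adjusted p = 0.000447) and a CVP response of 0.08 (95% interval -0.17 to 0.33). Wif1, another secreted Wnt inhibitor, had 68.96, 48.95, 96.4 and 77.1 CPM in FoP knock-out libraries, against 6.19 and 10.1 CPM in FoP wild type libraries. For Wif1, the CVP values were 15.7, 13.7, 38.9 and 43.01 CPM in knock-out and 19.7 and 23.1 CPM in wild type libraries. The CVP clones lay on opposite sides of their wild type, and the interaction was 2.78 ± 0.74 (adjusted p = 0.037). Myc, the growth-promoting transcription factor, was opposite and levelled. It had 142, 148, 167 and 195 CPM in FoP knock-out libraries, against 219.8 and 207 CPM in FoP wild type libraries. CVP levels of Myc were 181, 195, 172 and 181 CPM in knock-out and 122 and 118 CPM in wild type libraries. Its interaction was -0.99 ± 0.15 (adjusted p = 0.00206), with a knock-out difference of -0.16 ± 0.08 (adjusted p = 0.19). Nkd2, an inducible Wnt antagonist, rose in both lines, with an interaction of -0.95 ± 0.19 (adjusted p = 0.00773). The call of Wif1 was lost without any 1 wild type library (adjusted p 0.0869 to 0.149) or either of clones 2.4 and 2.5, clone 2.4 library 1, clone 2.5 library 1, clone 2.5 library 2 or clone 2.9 library 1 (adjusted p 0.0524 to 0.0975). Wif1 (adjusted p 0.1) was not called with limma voom with culture as a block. Wif1 (adjusted p 0.0698) was not called with genes of low counts kept in the fit. The count of 3 higher was 1 without FoP wild type library 1, FoP wild type library 2 or CVP wild type library 1. The count of 3 lower was 5 without clone 2.5.

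In the retinoid list 3 of 17 were called higher and 0 lower (17.6% called, close to the 15.8% of all tested genes). Cyp26b1, which degrades retinoic acid, had 21.8, 20.2, 23.6 and 21.6 CPM in FoP knock-out libraries, against 22.1 and 18.98 CPM in FoP wild type libraries. Cyp26b1 levels in CVP were 6.84, 6.83, 9.05 and 11.1 CPM in knock-out and 20.8 and 20.7 CPM in wild type libraries. The 4 CVP knock-out libraries were below the 8 others, which shared 1 level, and the interaction was 1.38 ± 0.23 (adjusted p = 0.0035). Dhrs3, which reduces retinaldehyde, fell in both lines, with an interaction of 0.91 ± 0.14 (adjusted p = 0.00225). It was levelled, with a knock-out difference that was still called, 0.26 ± 0.08 (adjusted p = 0.0318), against -0.64 between wild types. In the BMP and TGF-beta list 5 of 25 were called higher and 3 lower (32.0% called, against 15.8% of all tested genes). Tgfbr1, the type I TGF-beta receptor, fell in CVP alone with an interaction of 0.75 ± 0.10 (adjusted p = 0.000936). Fstl1, a follistatin-like secreted protein, rose in both lines. It had 422, 393, 340.1 and 333 CPM in FoP knock-out libraries, against 204 and 196 CPM in FoP wild type libraries. CVP levels of Fstl1 were 472, 445, 635 and 497 CPM in knock-out and 123 and 120.4 CPM in wild type libraries, with an interaction of -1.18 ± 0.19 (adjusted p = 0.00319). The antagonist Fst and the inhibitory factor Smad6 had interactions of -0.81 ± 0.19 and 0.64 ± 0.15. Kit, the stem cell factor receptor, found in duct and taste precursor lists, rose in both lines and crossed. It had 39.2, 39.4, 55.9 and 45.9 CPM in FoP knock-out libraries, against 15.9 and 15.9 CPM in FoP wild type libraries. For Kit, the CVP values were 67.3, 63.8, 78.9 and 68.1 CPM in knock-out and 9.33 and 8.86 CPM in wild type libraries, with an interaction of -1.43 ± 0.19 (adjusted p = 0.00133). The call of Fst was lost without any 1 wild type library (adjusted p 0.0516 to 0.081). Smad6 lost its call without FoP wild type library 2 (adjusted p 0.0785) or CVP wild type library 1 (adjusted p 0.0751). Fst (adjusted p 0.0686) was not called with genes of low counts kept in the fit. The BMP and TGF-beta count of 5 was 2 without FoP wild type library 2 and 3 without clone 2.5, FoP wild type library 1, CVP wild type library 1 or CVP wild type library 2. The count of 3 lower was 6 without clone 2.5.

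Of 13 type II and shared taste genes 0 were called higher and 1 lower, of 5 type III genes 0 in either direction, and of 9 type I and precursor genes 2 higher and 1 lower, where 7.28% of all tested genes were called higher and 8.49% lower. In lists of this size such counts are not a result about taste genes. The single type II and shared taste call was Kcnq1, a potassium channel subunit, with an interaction of -0.62 ± 0.16 (adjusted p = 0.0247). The call of Kcnq1 was lost without any 1 wild type library (adjusted p 0.0778 to 0.092) or clone 2.10 (adjusted p 0.0594). The count of 2 higher was 1 without FoP wild type library 1 or CVP wild type library 2. The count of 1 lower among type I and precursor genes was 2 without clone 2.9, clone 2.10 or clone 2.9 library 2. The medians of the interaction were -0.10, 0.14 and 0.25 for these lists, against -0.02 over all tested genes. The plot of list medians shows the response of each clone.

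**Figure D5:**
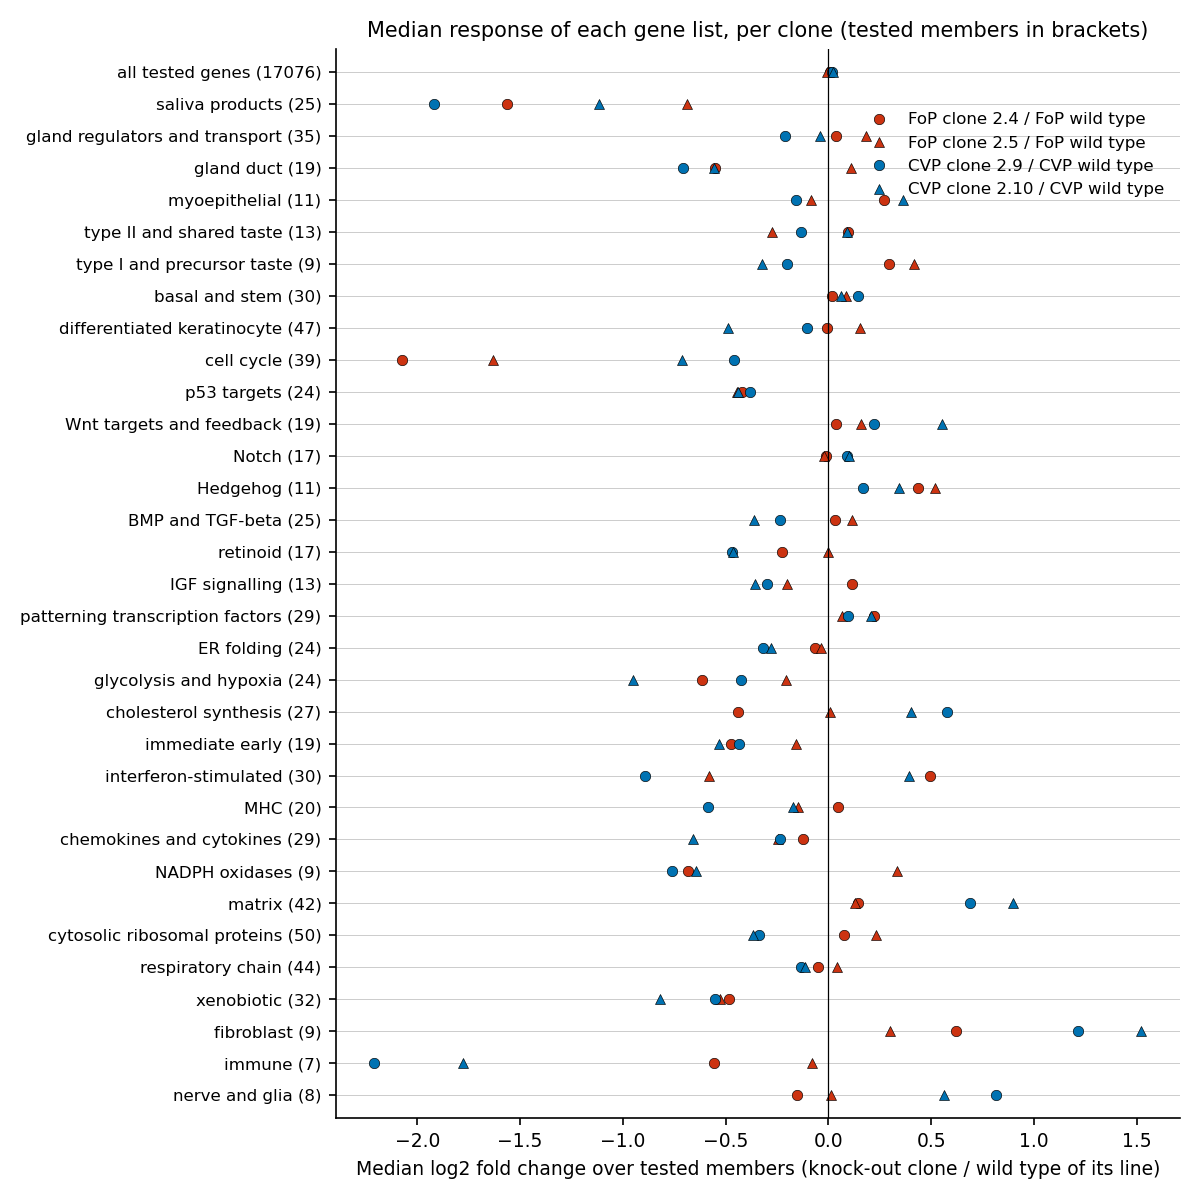
Median log2 fold change of the tested members of each list in FoP clones 2.4 and 2.5 (red) and CVP clones 2.9 and 2.10 (blue), each against the wild type of its line; all tested genes are on top and the number of tested members is in brackets; lists with few tested members are not drawn. For ribosomal proteins the medians are 0.08 and 0.23 in FoP clones and -0.34 and -0.37 in CVP clones, and for cell cycle genes -2.07 and -1.63 in FoP clones and -0.46 and -0.71 in CVP clones.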

How the data were processed

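RNA sequencing libraries of mouse tongue organoids were analysed from the raw counts per gene that the authors deposited, for 55367 gene symbols. Per the submitters' processing notes, the tools named are STAR and featureCounts and the build named is hg38; their versions, the annotation and the strand setting are not given in the sources used here. The symbols are mouse symbols, and 96.1% match 1 gene of GENCODE M21, which gave positions on GRCm38. Reads of genes that overlap on opposite strands may not be told apart. Libraries held 59.3 to 73.6 M counts (units of 1e6). Genes passing edgeR's filterByExpr (17076) were scaled by TMM and fitted with the robust quasi-likelihood model (edgeR 4.0.16, limma 3.58.1, R 4.3.3) over all 12 libraries with line, genotype and their interaction, and p-values were adjusted by Benjamini-Hochberg over all tested genes. Errors beside log2 values are standard errors approximated from the F statistic (the log2 value divided by the root of F), and intervals use the same error; CPM uses TMM-scaled library sizes. Counting intervals and ratios cover counting error only. The per-clone responses come from a fit with each culture as a group. Alternatives were DESeq2 1.42.0 size factors and test, other filters, voom, summed duplicates, a replicate block, halved counts and left-out libraries and clones. The steps were run on simulated data with libraries drawn independently of each other. The simulation held no likeness between duplicates of a clone, so it does not check the rate of false calls in these data.

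Genes were named by a rule: called, mean log2 CPM of at least 2, not a predicted gene, and both FoP clones on the same side of both CVP clones. From these came the 5 largest per direction among opposite genes, the 3 largest per line and direction among parted genes of 1 line alone, the 4 largest per direction among levelled genes, and up to 4 called members per list. Osr2, Trp63, Mki67, Cdc20, Mcm2, Ltf and Wfdc2 were named outside it or after their values were seen. The members and gene lists were chosen with earlier results of these data known. Promoter sequences are from RefSeq (GRCm38.p6).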

Additional observations from a re-analysis of the deposited data

Results flagged for a closer look

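The responses of the FoP and CVP lines differed in 2692 genes, which is the test the report is about, and each called gene it names is listed here for that reason with its interaction on the log2 scale (FoP response minus CVP response). The highest positive interactions were those of Chil1 (5.57), Duoxa2 (5.41), Bpifa1 (4.39), Cybb (4.26), Pigr (3.98), Sprr2d (3.69), Lgi2 (3.08), Il1f9 (3.03), Wif1 (2.78), Pi15 (2.72), Slc6a14 (2.51) and Krtdap (2.46). Next came those of Il1a (2.42), Cxcl2 (2.37), Tmprss11g (2.36), Krt19 (2.30), Crisp1 (2.29), H2-Ab1 (2.26), Scnn1a (2.17), Ltbp2 (2.03), Igfbp5 (1.98), Csf3 (1.94), Tgfbr3 (1.93) and Ngfr (1.82). Lower positive values were found for Krt23 (1.77), Sfrp1 (1.69), Cyp26b1 (1.38), Tgm1 (1.34), Cd68 (1.23), Cd34 (1.20), Wfdc2 (1.20), Gnao1 (1.07), Ltf (1.03), Duox1 (1.00), B4galt5 (0.96), Rps27 (0.92) and Dhrs3 (0.91). The smallest positive ones belonged to B2m (0.79), Trp63 (0.76), Tgfbr1 (0.75), Rps29 (0.72), Cx3cl1 (0.71), Rpl17 (0.69), Rps28 (0.67), Smad6 (0.64), H2-D1 (0.63), Duoxa1 (0.45) and H2-T23 (0.37). The most negative interactions were those of Osr2 (-8.97), Smoc1 (-4.72), Col11a1 (-3.44), Pole (-2.74), Wfdc18 (-2.54), Mcm5 (-2.44), Plb1 (-2.36), Ccdc141 (-2.27), Mpped2 (-2.21), Fbn1 (-2.17), Mmp13 (-2.12) and Serpinb10 (-2.12). They were followed by those of Tafa5 (-1.99), Alox12e (-1.92), Vim (-1.89), Zfp469 (-1.83), Zwilch (-1.79), Kif15 (-1.70), Bub1 (-1.66), Dmbt1 (-1.65), Foxm1 (-1.64), Kif11 (-1.60), Mki67 (-1.59) and Mef2c (-1.57). Smaller negative values were found for Col12a1 (-1.56), Timeless (-1.46), Kit (-1.43), Nav3 (-1.32), Cdc20 (-1.20), Fstl1 (-1.18), Krt14 (-1.17), Mcm2 (-1.02), Myc (-0.99), Nkd2 (-0.95), Fst (-0.81) and Kcnq1 (-0.62). The negative value nearest 0 was that of Pkp1 (-0.48).

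A knock-out library stood apart from the other 3 of its line. Tmprss11g had 10.1 CPM in the first library of CVP clone 2.10, where the other 3 CVP knock-out libraries held 18.1, 17.3 and 17.6 CPM. In groups of 4 independent values, chance gives such a gap in about 1 of 20 groups, and 170 groups were checked. The groups here hold duplicates of clones, which are not independent, so that rate does not apply to them as it stands.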

How the results depend on the processing

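With 1 library or clone left out at a time, called genes ranged 1103 to 2904, opposite genes 64 to 280, genes of FoP alone 145 to 548, of CVP alone 565 to 1464, levelled genes 63 to 623 and parted genes 229 to 882. The lowest counts came without a wild type library. Of 84 called genes counted in the report, 36 lost the call without 1 wild type library and 8 without 1 knock-out library. Osr2, Trp63, Mki67, Cdc20, Mcm2, Ltf and Wfdc2 are among the 84 but were not run in these alternatives. Whether they keep the call was not tested, and Cd68 is not among the 84. With limma voom and culture as a block, 1422 genes were called, of which 87 were opposite, 215 of FoP alone, 821 of CVP alone, 244 levelled and 315 parted; the cause was not tested. Summed per culture, which leaves 6 samples, 0 genes were called in any of these classes, and those of the 84 that were run had adjusted p from 0.122 to 0.423. A test against a 2-fold difference called 8. DESeq2 called 3529, of which 847 were levelled, and a ratio limit of 0.25 gave 333 levelled and 349 parted genes by its construction. Halved counts (2722), size factors of DESeq2 (2694), keeping low genes (2293) and a stricter minimum (2869) stayed within 1.5 times the reported count. No called gene of the report that was run in the alternatives changed the sign of its interaction. The interaction of Foxe1, not called, ran from -0.56 without clone 2.10 to 0.99 without clone 2.9. The duplicate number as a replicate block gave 2368 called genes. The 15 pairs of cultures had correlations of same-numbered deviations from -0.06 to 0.11, so the numbers name libraries and do not pair them. Halving the counts changed the number of calls by less than leaving out any wild type library, of which each line has 2, counted here as 1 culture.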

Other observations

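Further gene groups had the following called interactions, where 7.28% of all tested genes were called higher and 8.49% lower. Of 44 mitochondrial respiratory chain genes, the calls were 9 higher and 1 lower, with a median interaction of 0.10 on the log2 scale. The mitochondrial respiratory chain count of 9 higher was 5 without FoP wild type library 2 or CVP wild type library 1. The mitochondrial respiratory chain count of 1 lower was 0 without clone 2.4, FoP wild type library 1, FoP wild type library 2 or CVP wild type library 1. The 27 cholesterol synthesis genes had 1 called higher and 4 lower (median -0.63). The cholesterol synthesis count of 1 higher was 0 without FoP wild type library 1, FoP wild type library 2 or CVP wild type library 1 and 2 without clone 2.9. The cholesterol synthesis count of 4 lower was 0 without CVP wild type library 1, 1 without FoP wild type library 1 or CVP wild type library 2, 2 without clone 2.4, clone 2.9, clone 2.4 library 2, clone 2.5 library 1, FoP wild type library 2 or clone 2.10 library 1, 9 without clone 2.10 library 2, 17 without clone 2.5 library 2 and 18 without clone 2.5. Among 30 interferon-stimulated genes the calls were 3 higher and 0 lower (median 0.37). The interferon-stimulated count of 3 higher was 5 without clone 2.10.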
